A study of Caenorhabditis elegans with 6 samples.

Results

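Cytochrome P450 genes of *Caenorhabditis elegans* were taken as all genes of the deposited table whose symbol has the form *cyp*, a family number, a subfamily letter and a member number. The rule gave 79 genes of the 21507 listed, in 15 families and 25 subfamilies, of which 12 subfamilies had a single member. The rule leaves out *daf-9* and *dach-1*, which the deposited table annotates with the same protein domain under other names. Of the 79 genes, 53 had a mean of at least 10 normalized counts over the 6 libraries and were tested, and 26 had lower means and are described by their values. A normalized count is a read count divided by a size factor of its library.

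Cytochrome P450 enzymes carry a heme group and insert an oxygen atom into their substrates, with electrons supplied by a reductase. In nematodes they act on foreign compounds, on sterols and on polyunsaturated fatty acids, which they turn into signalling epoxides and alcohols. Members of the *cyp-35A* subfamily are known for strong induction by foreign compounds. Worms cannot make heme and take it up from food.

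RNA came from whole bodies of untreated L4 hermaphrodites, animals of the last larval stage before adulthood, in 3 libraries of wild type (strain N2) and 3 libraries of a glna knockout, in which glutaminase genes are disrupted. Which of the glna genes were disrupted is not given in the labels, nor is it stated whether the replicates were grown apart, so p-values describe the spread between these libraries, which may be technical. In whole worms, a change in RNA per cell and a change in the number of cells of a type cannot be told apart.

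The glutaminase genes went with the labels: *glna-2* had 408 to 519 normalized counts across wild-type libraries against 37.4 to 69.5 across knockout libraries, and *glna-3* had 636 to 761 and 83.1 to 175. *glna-1* was lower by less, at 255 to 270 and 128 to 187 (limma log2 fold change -0.78, SE 0.17, adjusted p = 0.0762). Recovered read totals were 18443661 to 19861540 per library. Knockout replicate 1 stood apart, with 3.58% of its normalized counts in ribosomal RNA genes against 0.331% to 0.763% in the other 5 libraries. All 62 marker genes of the 5 lists (oocyte, sperm, intestine, hypodermis, and adult cuticle with late molt) had a row, and *nhr-73* of the hypodermis list was the marker at 0 in a library. Oocyte markers summed to 28839.5 to 44159 normalized counts per wild-type library against 46176 to 107036 per knockout library, with the highest sum in knockout replicate 1. Hypodermis markers summed to 33616 to 49953 per wild-type library against 16662 to 29063 per knockout library, so that the groups did not overlap for either list. *dpy-13* and *col-10* made up most of the hypodermis sums. They averaged 18226 and 13694 normalized counts per wild-type library, against 7595 and 7700 per knockout library. Of the other tested hypodermis markers, *ptr-23* (limma log2 fold change -0.62, SE 0.17) was lower and *elt-3* (0.48, SE 0.13) higher without overlap. The rest overlapped between genotypes. Sums overlapped for sperm markers (17456 to 22015 and 13843 to 17667), for intestine markers (157328 to 173356 and 170334 to 197149) and for cuticle and molt markers (39052 to 43699 and 33431 to 43586). All 11 sperm markers nevertheless had negative log2 fold changes (median -0.47). Of them, 5 had an unadjusted limma p under 0.05 and 1 an adjusted p under 0.05 in the authors' deposited table. Among all tested genes, 11.8% were lower at that unadjusted p, and 8.14% were under that adjusted p in either direction. Of the 17 oocyte markers, 14 were higher at the unadjusted p and 7 at the adjusted p. Hypodermis markers had 1 higher and 3 lower at each of these thresholds.

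Levels differed far more between members than between genotypes. Together the 79 genes held 0.0544% to 0.0733% of all normalized counts in a library. Their sums were 10293 to 12517 per wild-type library against 10829 to 13039 per knockout library, which overlapped. The 5 most abundant members took 29.8% to 41.6% of the P450 sum. *cyp-35A2*, of the subfamily induced by foreign compounds, was the most abundant member in 5 libraries, and *cyp-33A1* was in wild type replicate 2.

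Per length, *cyp-35A2* had the highest wild-type level, 662 ± 241 normalized counts per kb of gene length (SD, n = 3). *cyp-33A1* followed with 633 ± 720.5 per kb, an average set by wild type replicate 2. The next 3 were *cyp-35C1* with 509.9 ± 95.9 per kb, *cyp-37A1* with 428 ± 67.2 per kb and *cyp-31A2* with 270.0 ± 62.7 per kb. The differences between *cyp-35A2* and *cyp-35C1* and between *cyp-35C1* and *cyp-37A1* were smaller than the sum of their SDs. Below them came *cyp-14A5* with 259 ± 70.2, *cyp-32A1* with 252 ± 41.3, *cyp-31A3* with 249 ± 29.9 and *cyp-29A2* with 239 ± 56.3 per kb, which did not differ from each other beyond their spread.

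**Figure D1:**
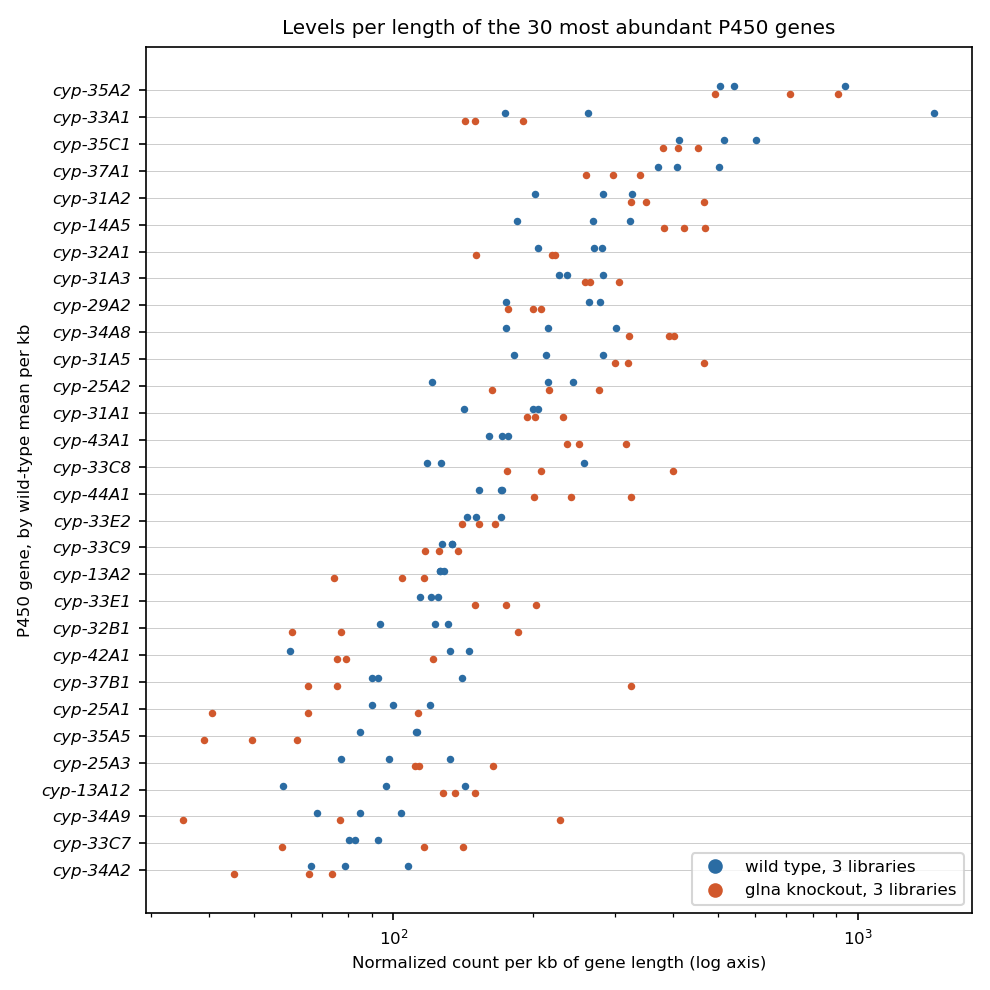
Normalized counts per kb of gene length (log axis) of the 30 P450 genes with the highest wild-type level, 1 point per library, wild type in blue and glna knockout in orange. *cyp-33A1* has 1 wild-type library far above the other 5, and for most genes the points of both genotypes overlap.

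The comparison asked which P450 genes differed in the glna knockout at L4. No member passed limma at an adjusted p under 0.05, where the background over all 15169 tested genes was 0.356%, and the smallest limma adjusted p was 0.0737, for *cyp-35A5*. Of the 53 tested members, 33 had log2 fold changes above 0 and 20 below, and their median was 0.11 against 0.01 over all tested genes. Without knockout replicate 3 the members' median was -0.0052, and 17 of the 53 changed sign when some single library was left out. At an unadjusted p under 0.05, 11 members were higher and 2 lower in limma, 24.5% of those tested, against a background of 22.6%. By direction these were 20.8% higher and 3.77% lower, against 10.9% and 11.8% of all tested genes. Groups did not overlap for 10 members higher and 3 lower in the knockout, also 24.5%, against a background of 30.5%. By direction these were 18.9% and 5.66%, against 15.3% and 15.2%. The pooled shares lie near or under their background, while the lower shares are under it and the higher shares above it; these differences were not tested.

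The authors' deposited table has 7 of the 79 members at an adjusted p under 0.05, 6 higher and 1 lower in the knockout, or 8.86%, against 5.75% of all listed genes (2.83% higher and 2.92% lower). Of all genes with a mean of at least 10, the table has 8.14% under that threshold, 4.01% being higher. DESeq2 on the recovered reads made the same 7 calls among the 53 members to which it gave an adjusted p, or 13.2%, against a background of 8.11%. edgeR's quasi-likelihood test on those reads called 0 members (background 0.0593%), with 11 higher and 4 lower at an unadjusted p under 0.05. The number of DESeq2 calls changed when single libraries were left out. When each wild-type library was left out in turn, there was 1 member higher and 0 lower (replicate 1 left out), 0 in either direction (replicate 2) and 2 higher with 3 lower (replicate 3). The same for the knockout libraries gave 2 higher and 2 lower (replicate 1 left out), 6 and 1 (replicate 2), and 2 and 1 (replicate 3). These refit calls were not all among the 7 deposited ones. Without wild type replicate 1 the call was *cyp-31A5* (adjusted p = 0.0374). Without knockout replicate 2, *cyp-31A5* (0.0465) and *cyp-33E1* (0.0262) were called higher, while *cyp-14A5* (0.0663) and *cyp-34A8* (0.118) were not called. Other refits called *cyp-25A1*, *cyp-33C2* and *cyp-35B1* lower, as given below. All 7 members kept their direction in these refits. The share of all genes that DESeq2 called in them is not given here, and each refit had fewer libraries. Over all genes, the 54 limma calls became 0 to 247 with a library left out, and limma called no P450 gene in those refits. Whether the changes in the DESeq2 calls are particular to P450 genes was not tested.

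**Figure D2:**
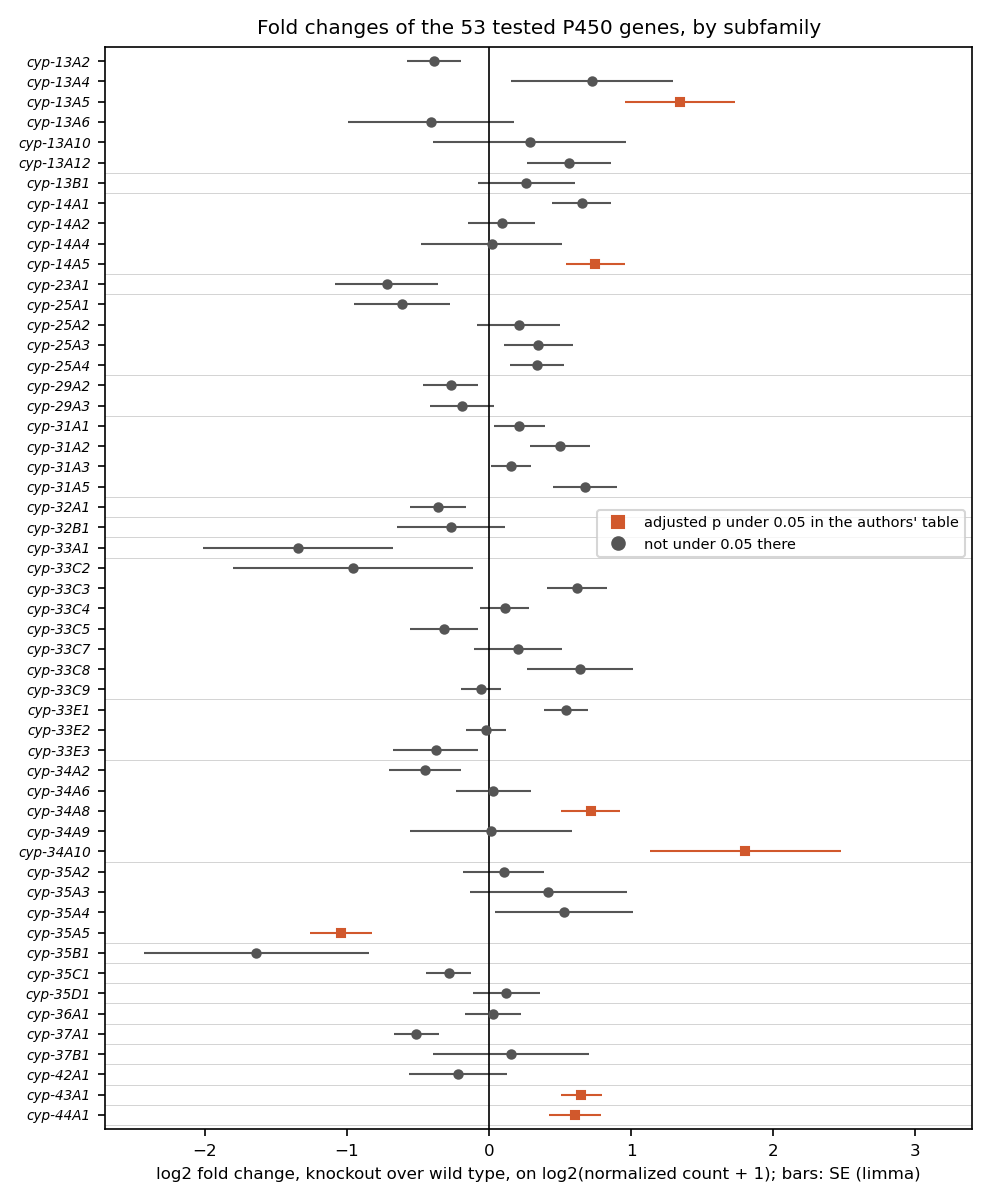
Log2 fold changes of the 53 tested P450 genes with their standard errors (limma, knockout over wild type, on log2(normalized count + 1)), grouped by subfamily. The 7 members at an adjusted p under 0.05 in the authors' deposited table are squares, 6 of them right of 0 and *cyp-35A5* left of it.

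*cyp-35A5* (K07C6.5, chromosome V, 3936374 to 3938496, plus strand, build WBcel235) was the member lower in the authors' deposited table. Genes of its subfamily respond to foreign compounds and affect fat storage. It had 177, 176.5 and 134 normalized counts in wild type replicates 1, 2 and 3, and 78.4, 97.5 and 61.7 in knockout replicates 1, 2 and 3. Every wild-type library was above every knockout library, and the mean was 2.05-fold lower in the knockout. The log2 fold change was -1.04 in limma (SE 0.22, adjusted p = 0.0737) and -1.04 in the authors' deposited table (adjusted p = 0.00395). In DESeq2 its adjusted p was 0.0552 with the first wild-type library left out and 0.0932 with the second left out, and it was under 0.05 when any one of the other 4 libraries was left out.

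*cyp-43A1* (E03E2.1, chromosome X, 5714279 to 5717562, plus strand) is the single member of its family. It had 335, 314 and 346 normalized counts across the wild-type libraries, against 621, 463 and 492 across those of the knockout. The groups did not overlap, and the wild-type libraries lay close together. Its log2 fold change was 0.65 in limma (SE 0.15, adjusted p = 0.0776) and 0.66 in the authors' deposited table (adjusted p = 0.00811). Without any one wild-type library its DESeq2 adjusted p was 0.0568, 0.130 and 0.0597. Without any one knockout library it was 0.0218, 0.0051 and 0.0204. The gene shares 28 bases with C41G11.1 on the opposite strand, which had 209 ± 41.1 normalized counts in the wild-type group against 334 ± 17.4 in the knockout group (SD, n = 3 each), with an adjusted p of 0.0187 in the authors' deposited table. The libraries are not stated to keep strand, so reads in the shared stretch cannot be told apart.

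*cyp-14A5* (F08F3.7, chromosome V, 5421012 to 5423305, minus strand) had 428, 293 and 514 normalized counts in the wild-type libraries against 747, 673 and 609.7 in the knockout ones. The knockout values all lay above the wild-type values, of which replicate 2 was the lowest. Its log2 fold change was 0.75 in limma (SE 0.21, adjusted p = 0.105) and 0.72 in the authors' deposited table (adjusted p = 0.0299). The other tested genes of the subfamily lie together on chromosome X. Among them *cyp-14A1* had 37.9, 37.5 and 38.4 normalized counts across the wild-type libraries, against 67.9, 57.4 and 56.0 across those of the knockout, groups that did not overlap (limma log2 fold change 0.65, SE 0.21, adjusted p = 0.134). *cyp-14A2* (log2 fold change 0.09, SE 0.24) and *cyp-14A4* (0.02, SE 0.50) overlapped between genotypes and had no stable direction. For *cyp-14A4* the authors' deposited table gives a log2 fold change of -0.16, and limma gave -0.42 without wild type replicate 1, where *cyp-14A2* was at -0.04.

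*cyp-34A8* (B0213.14, chromosome V, 3964779 to 3967871, minus strand) had 356, 288 and 497 normalized counts in the wild-type libraries against 530.0, 662 and 646 in the knockout ones. The gap between the groups was small beside the spread within each. Its log2 fold change was 0.72 in limma (SE 0.21, adjusted p = 0.112) and 0.69 in the authors' deposited table (adjusted p = 0.0420).

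*cyp-34A10* (B0213.16, chromosome V, 3970712 to 3973001, minus strand) lies in the same cluster and was rare, with 3.99, 3.94 and 5.62 normalized counts across the wild-type libraries, against 22.2, 5.74 and 43.4 across those of the knockout. Knockout replicate 2 was level with wild type replicate 3, at 6 reads each, so that only the size factors part the groups there. The other 2 knockout libraries were well above. The gene passed the limit of 10 through the knockout group, with means of 4.52 in wild type and 23.8 in the knockout. It is nevertheless counted among the members higher at an unadjusted p under 0.05, those without overlap and the 7 deposited calls. Its log2 fold change was 1.8 in limma (SE 0.67, adjusted p = 0.169) and 2.40 in the authors' deposited table (adjusted p = 0.0403). DESeq2 gave an adjusted p of 0.00277 without knockout replicate 2 and 0.122 to 0.219 with a wild-type library left out. Without knockout replicate 1 or 3 it gave none.

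*cyp-44A1* (ZK177.5, chromosome II, 5503966 to 5506115, plus strand) encodes the P450 of mitochondrial type in *C. elegans*. It had 301, 270.1 and 303 normalized counts in the wild-type libraries against 575, 356 and 426 in the knockout ones. Knockout replicate 1 was the highest, and all 3 knockout libraries were above wild type. Its log2 fold change was 0.61 in limma (SE 0.19, adjusted p = 0.125) and 0.63 in the authors' deposited table (adjusted p = 0.0482). With a library left out, DESeq2 called it only without knockout replicate 2 (adjusted p = 0.00779). In the other refits its adjusted p was 0.0892 to 0.298. It shares 24 bases with the nuclear pore gene *npp-24* on the same strand, which had 804 ± 33 normalized counts in the wild-type group against 884 ± 181 in the knockout group (SD, n = 3 each) and was not called.

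*cyp-13A5* (T10B9.2, chromosome II, 9798276 to 9800363, minus strand) had 27.9, 17.7 and 32.8 normalized counts across the wild-type libraries, against 65.5, 41.1 and 106 across those of the knockout. The groups did not overlap, and the knockout libraries were widely spread. Its log2 fold change was 1.35 in limma (SE 0.39, adjusted p = 0.111) and 1.44 in the authors' deposited table (adjusted p = 0.0216). Among the DESeq2 refits it was called only without knockout replicate 2 (adjusted p = 0.00353), and otherwise its adjusted p was 0.0513 to 0.211. The *cyp-13A* gene with the highest level per length, *cyp-13A2*, had 200.3, 201 and 205 normalized counts in the wild-type libraries against 166, 186 and 119 in the knockout ones, lower in every knockout library (limma log2 fold change -0.39, SE 0.19, adjusted p = 0.260). *cyp-13A12*, known from the response of worms to oxygen returning after hypoxia, averaged 165 ± 70.7 and 230.4 ± 19 normalized counts (SD, n = 3 each), and its groups overlapped.

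**Figure D3:**
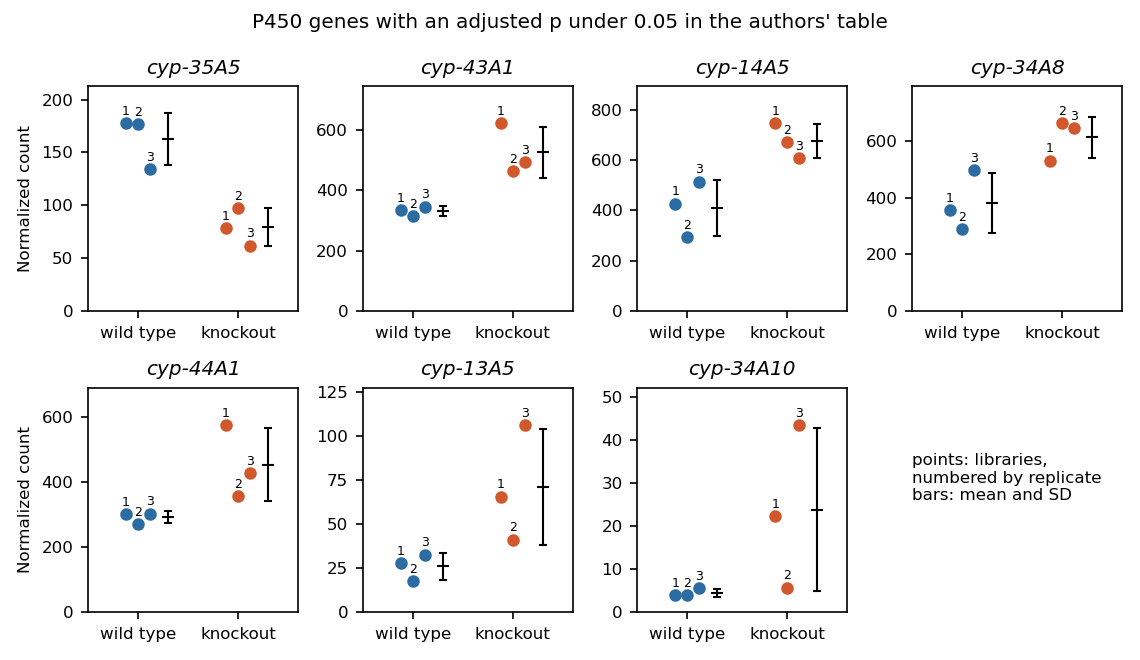
Normalized counts of the 7 P450 genes with an adjusted p under 0.05 in the authors' deposited table, 1 point per library numbered by replicate, with the mean and SD beside them. In each panel the wild-type and knockout points do not overlap, most narrowly for *cyp-34A10*, where knockout replicate 2 lies next to wild type.

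The *cyp-31A* subfamily is known for acting with the reductase *emb-8* in making the permeability barrier of the eggshell. All 4 genes had positive log2 fold changes (median 0.36), and none was called by limma or in the authors' deposited table. *cyp-31A5* had 297, 190.3 and 223 normalized counts across the wild-type libraries, against 489, 315 and 336 across those of the knockout, without overlap (limma log2 fold change 0.68, SE 0.22, adjusted p = 0.142). *cyp-31A2* had 521, 323 and 451 in the wild-type libraries against 747, 559 and 519 in the knockout ones, where the lowest knockout value fell just under the highest wild-type value (limma log2 fold change 0.50, SE 0.21, adjusted p = 0.207). *cyp-31A3* averaged 387 ± 46.6 and 431 ± 39.9, and *cyp-31A1*, annotated as a pseudogene, 253 ± 48.2 and 291 ± 27.1 normalized counts (SD, n = 3 each).

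Knockout replicate 1 was the highest library for *cyp-31A2*, *cyp-31A3* and *cyp-31A5*, as it was for the oocyte marker sum. Without it the limma log2 fold changes were 0.35 for *cyp-31A2* and 0.48 for *cyp-31A5*. Leaving out wild type replicate 2, the lowest library of both, gave 0.31 and 0.53. All 17 oocyte markers had positive log2 fold changes (median 0.99), and their part in the *cyp-31A* levels was not tested. *cyp-31A2* and *cyp-31A3* are close paralogs, so the division of reads between them is uncertain. *cyp-31A5* also shares 61 bases with Y62E10A.19 on the opposite strand, whose log2 fold change in limma was -0.63 (SE 0.32).

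A few members stood out through 1 wild-type library. *cyp-33A1* (C12D5.7, chromosome V, 7679321 to 7681537, minus strand) had 435, 2432 and 288 normalized counts in wild type replicates 1, 2 and 3, against 249, 316 and 237 in the knockout ones. Wild type replicate 2 alone was high. The limma log2 fold change was -1.34 (SE 0.67, adjusted p = 0.269), and -0.42 without wild type replicate 2.

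The same library was the highest for all 3 *cyp-35B* genes, which are neighbours on chromosome V. *cyp-35B1*, used in other studies as a readout of the insulin-regulated factor DAF-16, had 27.9, 81.8 and 7.49 normalized counts across the wild-type libraries, against 9.36, 3.83 and 12.5 across those of the knockout. *cyp-35B2* had 7.97, 20.7 and 0 in the wild-type libraries against 1.17, 4.78 and 4.82 in the knockout ones. *cyp-35B3* had 1.99, 15.8 and 0 in wild type and no read in any knockout library. The limma log2 fold change of *cyp-35B1* was -1.64 (SE 0.79, adjusted p = 0.257), and -0.84 without wild type replicate 2.

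*cyp-33C2* had 22.9, 129 and 7.49 normalized counts across the wild-type libraries, against 16.4, 13.4 and 13.5 across those of the knockout. Without wild type replicate 2 its limma log2 fold change went from -0.96 to 0.11. *cyp-13A10* had 7.97, 72.95 and 25.3 in the wild-type libraries against 37.4, 22.0 and 34.7 in the knockout ones. In all, 4 of the 53 tested members (7.55%) had in wild type replicate 2 at least 2 times the value of both other wild-type libraries, against 0.587% of all tested genes. For wild type replicate 3 there were 3 such members (5.66%), *cyp-33C8*, *cyp-35A3* and *cyp-35A4*, against 0.620%, and for replicate 1 there were 0. DESeq2 called *cyp-35B1* and *cyp-33C2* lower when wild type replicate 3 was left out (adjusted p = 0.00935 and 0.0229), and with all 6 libraries the authors' deposited table gives 0.0625 and 0.127.

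The tested *cyp-35A* genes other than *cyp-35A5* varied across libraries without following genotype. *cyp-35A2* had 815, 874 and 1515 normalized counts across the wild-type libraries, against 1150.2, 795 and 1464 across those of the knockout. *cyp-35A3* had 64.8, 64.1 and 231 in the wild-type libraries against 151, 71.7 and 213 in the knockout ones. Its neighbour *cyp-35A4* had 14.9, 17.7 and 44.02 across the wild-type libraries, against 39.8, 19.1 and 48.2 across those of the knockout. For all 3 genes the same 3 libraries were high, wild type replicate 3 and knockout replicates 1 and 3, whereas the lowest value of *cyp-35A5* was in knockout replicate 3.

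Knockout replicate 3 was high for another group. *cyp-37B1* had 153, 149 and 233 normalized counts in the wild-type libraries against 109, 125 and 538 in the knockout ones. *cyp-34A9* had 174, 115 and 142.4 across the wild-type libraries, against 129, 59.3 and 385 across those of the knockout. For both genes the other 2 knockout libraries lay below or within the wild-type range. The limma log2 fold changes were 0.15 (SE 0.55) and 0.01 (SE 0.57), with adjusted p = 0.886 and 0.990, and both turned negative without knockout replicate 3, at -0.58 and -0.69. With *cyp-32B1* and *cyp-23A1*, 4 members (7.55%) were at least 2 times as high in knockout replicate 3 as in both other knockout libraries, against 2.28% of all tested genes.

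**Figure D4:**
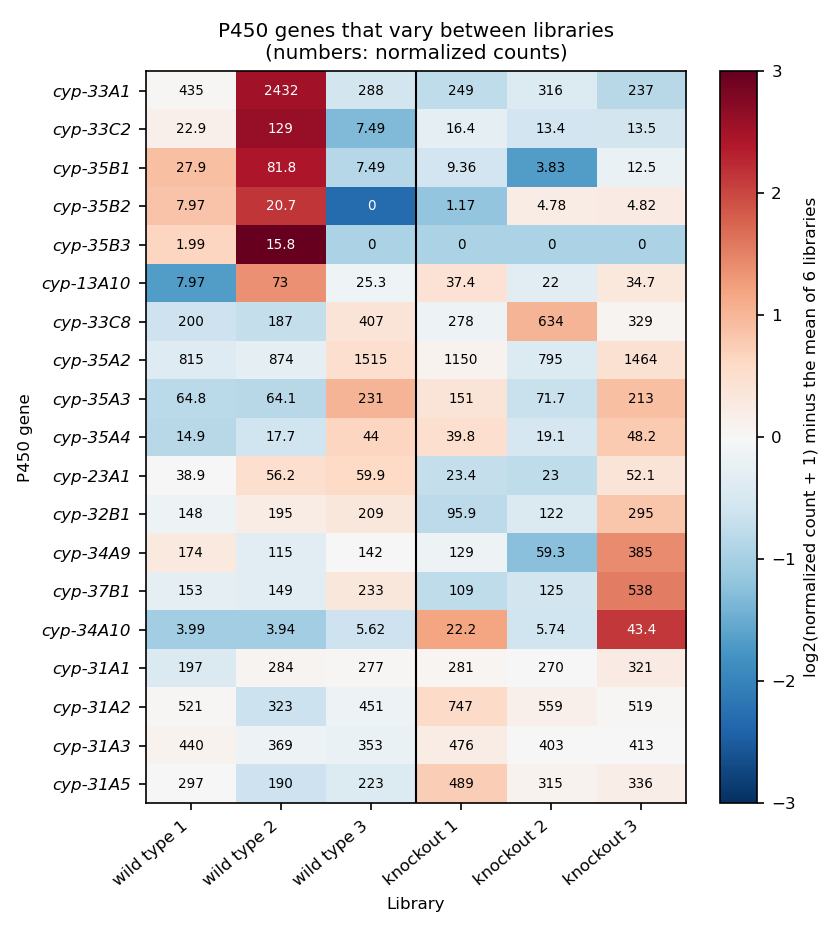
Colours give log2(normalized count + 1) of P450 genes that vary between libraries, relative to the gene's mean over the 6 libraries, and the number in each cell is the normalized count. The *cyp-35B* genes, *cyp-33A1* and *cyp-33C2* are highest in wild type replicate 2, *cyp-37B1* and *cyp-34A9* in knockout replicate 3, and 3 of 4 *cyp-31A* genes in knockout replicate 1.

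The spread between replicates was larger for P450 genes than for tested genes at large. The median SD of log2 values was 0.33 over the 53 members against 0.17 over all tested genes in wild type, and 0.30 against 0.25 in the knockout. Members were also less abundant, with a median of 143 normalized counts against 295, and the part of level in the spread was not tested.

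The *cyp-33* family is the largest, with 18 genes, of which 11 were tested, 5 with positive and 6 with negative log2 fold changes. *cyp-33E1* had 175, 185 and 192 normalized counts in the wild-type libraries against 269, 230.5 and 312 in the knockout ones, without overlap (limma log2 fold change 0.54, SE 0.16, adjusted p = 0.113). *cyp-33E2*, known for making eicosanoids that act on pharyngeal pumping, averaged 245 ± 21.9 and 242 ± 19.6 normalized counts (SD, n = 3 each). *cyp-33C3* had 129, 107 and 83.4 across the wild-type libraries, against 191, 145 and 152 across those of the knockout, without overlap (limma log2 fold change 0.62, SE 0.21, adjusted p = 0.146). *cyp-33C8*, the *cyp-33C* gene with the highest level per length, overlapped, with 200.3, 187 and 407 in the wild-type libraries against 278, 634 and 329 in the knockout ones.

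Among single-member subfamilies, *cyp-37A1* was lower in every knockout library. It had 639.8, 786 and 582 normalized counts across the wild-type libraries, against 407, 466 and 532 across those of the knockout (limma log2 fold change -0.51, SE 0.16, adjusted p = 0.129; adjusted p = 0.0735 in the authors' deposited table). It shares 4 bases with F01D5.8 on the opposite strand, which averaged 639.7 ± 28.2 and 476 ± 72.5 normalized counts (SD, n = 3 each).

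Several other genes of small subfamilies overlapped between genotypes. *cyp-35C1* averaged 786 ± 148 and 639 ± 55.4, *cyp-32A1* 425 ± 69.7 and 333 ± 68.9, *cyp-42A1* 189 ± 77.5 and 155 ± 42.97, and *cyp-23A1* 51.7 ± 11.2 and 32.8 ± 16.7 normalized counts (SD, n = 3 each). *cyp-36A1*, which acts downstream of the hypoxia factor HIF-1, averaged 131 ± 18.1 and 134 ± 23.7. *cyp-35D1*, which hydroxylates the drug thiabendazole and is the tested gene of its subfamily, averaged 51.1 ± 5.46 and 56.4 ± 11.4.

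In the *cyp-25A* subfamily *cyp-25A2* had the highest level per length and averaged 291 ± 96.9 and 330.2 ± 86.6 normalized counts (SD, n = 3 each). The largest fold change there was that of *cyp-25A1*, with 162, 195 and 146 in the wild-type libraries against 184, 65.99 and 106 in the knockout ones (limma log2 fold change -0.61, SE 0.34, adjusted p = 0.311). DESeq2 called it lower without knockout replicate 1 (adjusted p = 0.0292). Both tested *cyp-29A* genes had negative log2 fold changes, -0.27 (SE 0.19) for *cyp-29A2* and -0.19 (SE 0.23) for *cyp-29A3*, which contributes to eicosanoid synthesis. *cyp-13B1* averaged 60.0 ± 20.0 and 71.9 ± 26.3 normalized counts.

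The 26 untested members had means between 0.327 and 8.35 normalized counts and no library value above 20.7, and 14 of them had no read in at least 1 library. None was without reads in all 6 libraries. Just outside the limit of 10 lay *cyp-13A1* (mean 8.35), the pseudogene *cyp-29A1* (7.31) and *cyp-35B2* (6.57), and just inside lay *cyp-13A6* (10.2), *cyp-14A4* (10.8) and *cyp-34A10* (14.2). *cyp-13A6* passed it through the wild-type group, with means of 12.6 in wild type and 7.93 in the knockout. No gene of the *cyp-33B* and *cyp-33D* subfamilies was tested. At this depth differences in the untested genes were not detectable, which does not show that they are absent.

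By position, 42 members lie on chromosome V, 13 on II, 9 on IV, 8 on X, 6 on III and 1 on I. With starts within 20000 bases of the next member, 48 of the 79 fall into 12 clusters. Of the 8 clusters with at least 2 tested genes, 4 held limma log2 fold changes of both signs and 4 of 1 sign. The cluster of 10 genes on chromosome V from 3936374 to 3973001 holds *cyp-35A5* and the *cyp-35B* genes at one end and *cyp-34A8*, *cyp-34A9* and *cyp-34A10* at the other. Its wild-type means ran from 3.22 to 380.3 normalized counts, and its 6 tested genes had log2 fold changes from -1.64 to 1.8, 4 positive and 2 negative. The cluster of 9 *cyp-13A* genes on chromosome II, from 9779182 to 9807532, had 4 tested genes, 2 in each direction, from -0.41 to 1.35.

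Of the listed genes around P450 function, 56 had a row and 54 were tested; *hsd-1* was not analysed here. No gene of these lists passed limma, where the background was 0.356%. At an unadjusted p under 0.05, 13 were higher and 4 lower (background 22.6%), and 5 higher and 2 lower had an adjusted p under 0.05 in the authors' deposited table, or 12.5%, against 5.75% of all listed genes and 8.14% of genes with a mean of at least 10.

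Among the 5 redox partners, which pass electrons to P450 enzymes, 1 had a positive and 4 a negative log2 fold change. *emb-8*, the P450 reductase, had 2736, 2777 and 3002 normalized counts across the wild-type libraries, against 3497, 2860.4 and 2707 across those of the knockout, and overlapped (limma log2 fold change 0.08, SE 0.13, adjusted p = 0.725). Y73F8A.27 was the partner lower in the authors' deposited table, with 528, 469 and 466 in the wild-type libraries against 275, 392 and 242 in the knockout ones (limma log2 fold change -0.71, SE 0.19, adjusted p = 0.0967; adjusted p = 0.0300 in the authors' deposited table).

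Fatty acid desaturases make the polyunsaturated substrates of several P450 enzymes, and *fat-2*, *fat-3* and *fat-4* were higher in the authors' deposited table. *fat-3* had 2339.8, 2319.7 and 3229 normalized counts across the wild-type libraries, against 4011, 4022 and 5383 across those of the knockout, without overlap (limma log2 fold change 0.77, SE 0.18, adjusted p = 0.0783). The epoxide hydrolases *ceeh-1* and *ceeh-2*, which break down epoxides, overlapped, with log2 fold changes of 0.10 (SE 0.15) and 0.00 (SE 0.21).

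No heme-handling gene was called. Of the 8 tested, 6 had positive and 2 negative log2 fold changes in limma (median 0.45), with 4 higher and 1 lower at an unadjusted p under 0.05. Over all tested genes the shares at that p were 10.9% higher and 11.8% lower. Among the 4 higher genes, *hrg-2* passed the limit on mean counts through the knockout group, with means of 6.09 in wild type and 20.7 in the knockout. Its groups overlapped. *hrg-9* had 27.9, 40.4 and 53.4 normalized counts in the wild-type libraries against 97.1, 74.6 and 66.6 in the knockout ones, without overlap (limma log2 fold change 0.98, SE 0.29, adjusted p = 0.114; adjusted p = 0.0586 in the authors' deposited table). The 1 lower gene, *hrg-1*, a heme transporter, had 342, 328 and 306 normalized counts in the wild-type libraries against 221, 251 and 233 in the knockout ones (limma log2 fold change -0.47, SE 0.13, adjusted p = 0.108; adjusted p = 0.0647 in the authors' deposited table).

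All 5 genes listed for the eggshell barrier, *emb-8* included, had positive log2 fold changes (median 0.52) and none was called. All 5 were highest in knockout replicate 1, the library with the highest oocyte marker sum and ribosomal RNA share. Without it 4 were positive, with a median of 0.29, and *emb-8* was at -0.03. The 17 oocyte markers were positive too (median 0.99), and their part in the levels of the barrier genes was not tested.

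Of 23 regulators, 14 had positive and 9 negative log2 fold changes. The nuclear receptors *nhr-114* (log2 fold change 0.73, adjusted p = 0.0329) and *nhr-48* (0.49, adjusted p = 0.0456) were higher in the authors' deposited table. *ahr-1*, the aryl hydrocarbon receptor, averaged 15.6 ± 4.43 and 17.3 ± 1.58 normalized counts.

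In the sterol hormone pathway *daf-9*, the P450 of dafachronic acid synthesis, had 77.7, 110.4 and 94.6 normalized counts across the wild-type libraries, against 94.8, 72.7 and 93.6 across those of the knockout, and overlapped (limma log2 fold change -0.11, SE 0.21, adjusted p = 0.781). The sterol transport gene *ncr-2* was the one called there in the authors' deposited table (adjusted p = 0.00394), with 539, 618 and 481 in the wild-type libraries against 309, 354 and 356 in the knockout ones (limma log2 fold change -0.68, SE 0.14, adjusted p = 0.0737). *dach-1* averaged 127 ± 22.4 and 118 ± 36.2 normalized counts (SD, n = 3 each).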

How the data were processed

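The signal values that the authors deposited are normalized counts, reads per gene divided by a size factor of each of the 6 libraries, with the authors' log2 fold changes and adjusted p-values, per the file headers. The submitters' processing notes name DESeq2 1.20.0 and, for earlier steps, featureCounts 1.5.0-p3, HISAT2 2.0.5, CASAVA 1.8 and StringTie 1.3.3b; WBcel235 is the build given there. Dividing each library's values by that of 1 read gave whole reads (within 0.01) for 100% of values.

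Log2(normalized count + 1) of 15169 genes (mean over libraries 10 or more) was fitted with limma 3.58.1 (R 4.3.3; trend, empirical Bayes, genotype only), with two-sided p-values adjusted by Benjamini-Hochberg over all of them and a threshold of 0.05. A fold change on this scale understates that of rare genes. edgeR 4.0.16 and DESeq2 1.42.0 on the recovered reads were alternatives. In data simulated for the knockout against wild type over 15169 genes, 200 were given a change, of which limma recovered 64% at 2-fold and 99% at 4-fold. DESeq2 recovered 73% and 99%. Of its 206 calls there, 34 fell on genes given no change, against 11 of 174 calls in limma and in edgeR. Changed genes were drawn only from the more abundant ones, so these shares do not apply to rare members or to P450 genes as a group.

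The members and lists were chosen with earlier results of these data known. Named genes were those called by limma or in the authors' table, the most abundant per length and the most changed of each subfamily, members with a known role, and those nearest the limit of 10. *cyp-14A1*, *cyp-14A2*, *cyp-29A3*, *cyp-31A1*, *cyp-33C3*, *cyp-13A10*, *cyp-34A9*, *cyp-35A4*, *cyp-35B3* and genes that overlap a member were added after their values were seen. Sequences were not used here.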

Additional observations from a re-analysis of the deposited data

How the results depend on the processing

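With the replicate number as a block, limma called 2 P450 genes higher (*cyp-13A5* and *cyp-31A5*) and 1 lower (*cyp-35A5*), 2 listed partner, substrate and regulator genes higher and 1 lower, and 688 of all genes. Same-numbered libraries deviated with correlations of 0.20, -0.02 and 0.29, and differently numbered ones with -0.37 to 0.13. These values do not settle whether the numbers pair the samples, and the main fit kept genotype only.

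Against 0 P450 genes in either direction, DESeq2 and the authors' deposited table each had 6 higher and 1 lower, and leaving out each library gave 0 to 6 higher and 0 to 3 lower, all of these calls from DESeq2, whose repeats were added after seeing the data. Of the listed partner, substrate and regulator genes, DESeq2 and the authors' table each had 5 higher and 2 lower, and leaving out each library gave 0 to 1 lower. Over all genes, against 54 calls, there were 112 with a minimum mean of 1, 164 with no filter, 19 with a pseudocount of 0.5, 320 with array weights, 9 in edgeR with TMM factors, 21 in edgeR with median-of-ratios factors, 1236 in DESeq2 and 1236 in the authors' table, and 0 to 247 with a library left out. The cause was not tested.

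The median log2 fold change of the members ranged from -0.0052 to 0.21 with a library left out. The log2 fold change of *cyp-13A10* was -0.19 in edgeR with TMM factors, -0.18 with median-of-ratios factors, and -0.18 in DESeq2 and the authors' table. With a library left out in limma, the log2 fold change ranged from -0.48 to 1.04 for *cyp-13A10*, -0.74 to 0.061 for *cyp-32B1*, -1.86 to 0.11 for *cyp-33C2*, -0.69 to 0.65 for *cyp-34A9*, 0.07 to 1.03 for *cyp-35A3* and -0.58 to 0.57 for *cyp-37B1*. With a library left out in DESeq2, values of the opposite sign to limma's with all 6 were -0.65, -0.37, -0.33 and -0.26 for *cyp-13A10*, 0.18 and 0.090 for *cyp-32B1*, -0.63 for *cyp-34A9*, -0.025, -0.031 and -0.12 for *cyp-35A3* and -0.61 for *cyp-37B1*. Over all 53 tested members, 27 of 318 limma fold changes with a library left out had the opposite sign, in 17 members. Besides 5 of those above they were *cyp-13B1*, *cyp-14A2*, *cyp-14A4*, *cyp-25A2*, *cyp-33C7*, *cyp-33C9*, *cyp-33E2*, *cyp-34A6*, *cyp-35A2*, *cyp-35D1*, *cyp-36A1* and *cyp-42A1*, whose turned values lay between -0.42 and 0.05. With 3 libraries a group, small changes of variable or rare members were not detectable.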
